A study of Mus musculus with 8 samples.

Results

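The genes of oxidative phosphorylation were described in single OT-I T cells that carried 1 CRISPR guide each. Genes were taken by name, from Ndufa, Ndufb, Ndufs, Ndufv, Uqcr, Cox4 to Cox8, Atp5, mt-Nd, mt-Co, mt-Atp and mt-Cytb symbols, without Ndufv3, a rule on names that uses no measured value. This gave 100 of the 32285 gene features, 87 encoded in the nucleus and 13 in the mitochondrial genome. The nuclear genes comprised 36 complex I genes, 8 complex I assembly factors (the Ndufaf genes, which match the same letters), 8 complex III genes, 18 complex IV genes and 17 genes of complex V, the ATP synthase. The name rule took no complex II gene, and complex II was compared as a separate list.

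The respiratory chain passes electrons from NADH and succinate through complexes I to IV to oxygen and pumps protons across the inner mitochondrial membrane, and complex V uses that gradient to make ATP. Complexes I, III, IV and V are each built from subunits of both genomes, so that nuclear transcripts made by RNA polymerase II and mitochondrial transcripts, processed from long polycistronic precursors, feed the same machines. CD8 T cells raise both glycolysis and respiration when activated, and loss of mitochondrial function is a known trait of exhausted T cells in tumours.

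The cells were CD90.1+ OT-I T cells, CD8 T cells specific for ovalbumin, from Rag2/OT-I mice crossed to Rosa26-Cas9 knock-in mice on a C57BL/6J background. They had been transduced with a lentiviral CROP-seq library of guides against metabolic genes and nontargeting guides (sgNT), which also carries the CD90.1 reporter, and injected into the tail vein of Cas9-expressing mice of 6 to 12 weeks with orthotopic KPC_OVA tumours, a mouse pancreatic ductal adenocarcinoma line that expresses ovalbumin. Mice were given anti-PD-1 (3 libraries, replicates 1 to 3) or IgG (1 library) from the day of transfer, and CD90.1+ cells were sorted from the primary tumour 7 days after transfer. All groups share Cas9, the guide library and the tumour line, and an untransduced control was not analysed here. The study describes more mice than libraries, from independent experiments, so mice may have been pooled, and how many entered each library was not stated. The p-values for treatment therefore measure the spread between libraries, which may in part be technical. In the other comparisons library was a block, so their p-values measure how far differences within libraries vary from library to library.

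After filtering, 23059 cells were kept, with 2535, 2597 and 6432 cells in anti-PD-1 replicates 1 to 3 and 11495 in IgG, and median UMIs (unique molecular identifiers, counted transcripts) per cell of 16829, 16325, 12084 and 6329. The 5 CD8 T cell markers Cd3e, Cd3d, Cd8a, Cd8b1 and Trac summed to between 4552 and 5282 CPM (UMIs of a gene scaled to the same total in every sum) and none was at 0, whereas B and plasma cell genes summed to 57.6 to 252 CPM, myeloid genes to 9.86 to 13.5 CPM, tumour epithelium genes to 9.67 to 21.6 CPM and stroma genes to 7.08 to 14.9 CPM. In all, 117 cells held at least 10 UMIs of another cell type. Between 3 and 18 kept barcodes were shared by a pair of libraries. Guide composition placed replicates 1 and 2 apart from replicate 3 and IgG, which no label names as a batch. The study's methods correct for a pair of batches and do not say which libraries they held.

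Oxidative phosphorylation transcripts were a steady nuclear part and a variable mitochondrial part of the transcriptome. Nuclear members held 2.89%, 3.04% and 2.92% of the UMIs in anti-PD-1 replicates 1 to 3 and 2.84% in IgG (2.92% ± 0.0856 SD, n = 4), a 1.07-fold range. Mitochondrially encoded members held 3.14%, 2.17% and 1.43% in the replicates and 2.03% in IgG (2.19% ± 0.706 SD, n = 4), a 2.19-fold range. The IgG library lay within the anti-PD-1 range for the mitochondrial genes and just under it for the nuclear genes. The 3 anti-PD-1 libraries thus spanned the whole range of the mitochondrial genes, and the ratio of nuclear to mitochondrial members ran from 0.922 in replicate 1 to 1.40, 2.04 and 1.40 in replicates 2 and 3 and IgG.

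**Figure D1:**
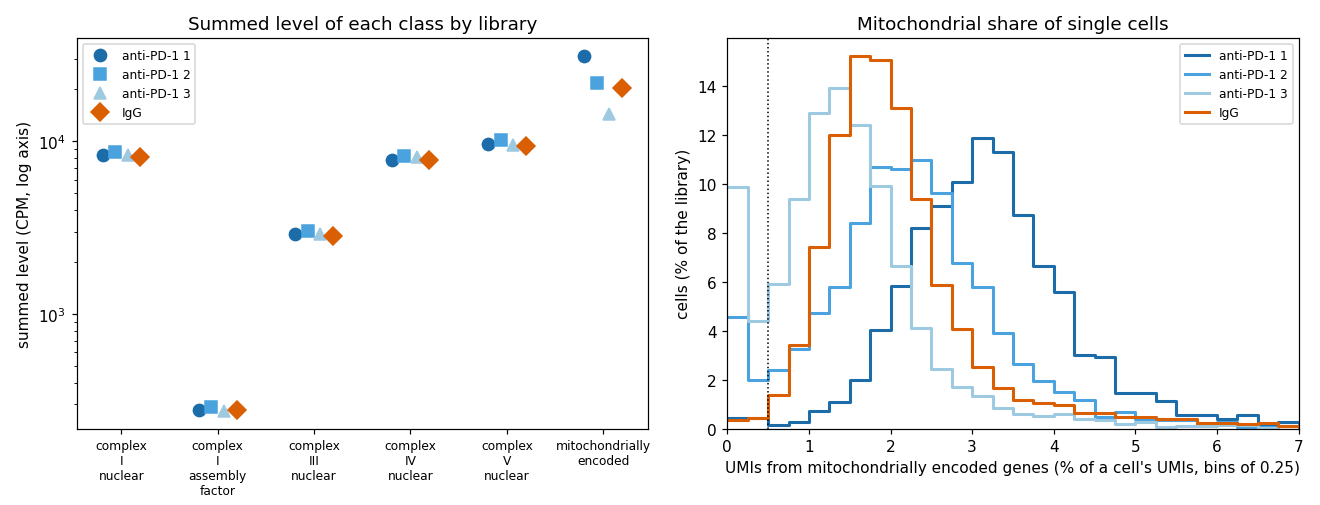
Left, summed level of each gene class (CPM, log axis) in the 4 libraries, 1 point per library. Right, share of cells of each library (y axis, in percent) by the share of a cell's UMIs from mitochondrially encoded genes (x axis, in percent, bins of 0.25), with a dotted line at 0.5%. The 5 nuclear classes lie close together across libraries while the mitochondrial class runs from 14326 to 31369 CPM, and replicates 2 and 3 have a second group of cells at the left edge.

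Levels differed widely between members. Libraries were of the 3′ kind, so that a UMI counts a transcript whatever its length and CPM can be set side by side between genes, apart from differences in poly(A) capture. The median member reached 288 CPM as the mean of the 4 libraries, 10 members reached 1000 CPM and 9 stayed under 10 CPM. The highest were the mitochondrial genes mt-Co3 (4634 CPM) and mt-Co1 (3928 CPM), both core subunits of cytochrome c oxidase, followed by mt-Atp6 of the ATP synthase (3525 CPM), mt-Co2 (3393 CPM) and mt-Cytb, the complex III cytochrome b (2192 CPM). Among the nuclear genes, Cox8a (1181 CPM), Atp5e, the epsilon subunit of the ATP synthase (1161 CPM), and Cox4i1 (1137 CPM) were highest. Uqcrh, the hinge protein of complex III, reached 880 CPM and Ndufa4, named as a complex I gene and now assigned to complex IV, 581 CPM. Assembly factors were scarce, at up to 79.9 CPM for Ndufaf8.

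Several isoforms known from specialised tissues were near the floor. Cox8b and Cox8c had no UMI in any library, which allows up to 0.0339 CPM in the deepest library and 0.0623 CPM in the shallowest (3 UMIs, counting error only). Cox7b2 had 1 UMI, Cox4i2 had 5, Ndufa4l2 had 38 and Cox6a2 had 80 over all 4 libraries. The muscle isoform Cox7a1 (4.24 CPM, 1210 UMIs) and Cox6b2 (1.46 CPM, 407 UMIs) were low and clearly above the floor. The ubiquitous isoforms Cox8a and Cox4i1 were among the highest nuclear members. The filter on low counts kept 96 members in the treatment fit, 94 in the fits of phase, depth and guide targets and 93 in the fit of cell states.

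Promoter windows are shown for 1 nuclear gene per class, the one with most different motifs and, where several tie, the highest mean CPM, as the letters from which factors known for respiratory genes are searched. RefSeq windows (GRCm38.p6) from 250 bases before to 50 after the start were matched for 70 of the 87 nuclear members. Searched on both strands were the palindromic NRF1 consensus, with any base at its centre, CCGGAAG (ETS factors, among them the GABP factor also called NRF2), AAGATGGC (YY1), CACGTG (E-box) and TCAAGGTCA (ERR), and capitals mark each match on either strand. None of the matches shown overlaps another.
Ndufs6, complex I, chr13:73328433-73328732, minus strand, with an NRF1 and a YY1 match: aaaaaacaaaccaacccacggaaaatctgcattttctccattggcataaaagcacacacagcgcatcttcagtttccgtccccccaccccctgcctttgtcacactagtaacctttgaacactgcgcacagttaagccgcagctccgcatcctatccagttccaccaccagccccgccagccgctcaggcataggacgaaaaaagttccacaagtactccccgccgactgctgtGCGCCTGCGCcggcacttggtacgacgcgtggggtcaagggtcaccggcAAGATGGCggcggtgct
Ndufaf8, assembly factor, chr11:120098684-120098983, plus strand, with an ETS and a YY1 match: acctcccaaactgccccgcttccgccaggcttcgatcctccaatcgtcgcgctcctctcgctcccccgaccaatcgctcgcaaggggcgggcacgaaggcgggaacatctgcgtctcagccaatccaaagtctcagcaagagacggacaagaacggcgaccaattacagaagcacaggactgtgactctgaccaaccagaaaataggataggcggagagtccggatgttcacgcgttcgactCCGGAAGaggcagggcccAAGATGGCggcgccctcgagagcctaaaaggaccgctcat
Uqcrh, complex III, chr4:116075021-116075320, minus strand, with an ETS match: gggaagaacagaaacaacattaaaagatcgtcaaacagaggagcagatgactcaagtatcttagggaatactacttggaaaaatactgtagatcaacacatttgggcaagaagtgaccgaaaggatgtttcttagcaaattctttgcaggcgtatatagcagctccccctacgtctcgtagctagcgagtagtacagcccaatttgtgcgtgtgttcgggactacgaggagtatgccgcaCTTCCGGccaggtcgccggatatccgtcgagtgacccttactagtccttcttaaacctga
Cox6a1, complex IV, chr5:115348909-115349208, minus strand, with 2 NRF1 matches and an ETS match: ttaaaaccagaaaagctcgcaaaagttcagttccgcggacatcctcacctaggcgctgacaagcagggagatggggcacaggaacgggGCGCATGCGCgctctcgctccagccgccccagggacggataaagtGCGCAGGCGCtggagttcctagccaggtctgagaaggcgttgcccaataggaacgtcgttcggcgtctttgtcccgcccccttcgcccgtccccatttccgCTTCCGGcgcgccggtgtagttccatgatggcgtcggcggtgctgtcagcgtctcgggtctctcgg
Atp5g3, complex V, chr2:73911277-73911576, minus strand, with an NRF1, an E-box and an ERR match: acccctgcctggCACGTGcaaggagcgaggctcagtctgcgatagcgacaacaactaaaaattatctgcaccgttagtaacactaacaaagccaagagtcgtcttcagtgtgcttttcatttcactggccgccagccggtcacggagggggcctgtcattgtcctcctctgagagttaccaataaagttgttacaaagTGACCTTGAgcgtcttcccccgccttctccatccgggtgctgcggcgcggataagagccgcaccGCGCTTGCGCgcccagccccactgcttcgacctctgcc

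Counted by gene, the NRF1 letters stood in 17 of the 70 members (24.3%). They stood in 12.5% of 8882 genes tested for cell cycle phase with a window, and in 5.19% of all 27025 genes with a window. The YY1 letters stood in 10 (14.3%, against 5.74% and 3.19%) and the ETS letters in 17 (24.3%, against 22.4% and 9.93%). The E-box stood in 6 (8.57%, against 12% and 8.09%) and the ERR letters in 1 (1.43%, against 0.315% and 0.466%). These shares are descriptions of letters in a window, and windows were not matched for, among others, Ndufs1, Cox4i2, Ndufaf6, Uqcrc2, Cox6a2, Cox4i1, Ndufa4l2, Uqcrq, Ndufb1-ps, Cox8c, Atp5mpl, Uqcrb, Cox6c, Ndufb9, Ndufa2 and Atp5a1.

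To ask whether anti-PD-1 changed these genes, UMIs were summed per library and the 3 anti-PD-1 libraries compared with the 1 IgG library. No member passed the test, and 0.0% of the 13810 genes tested were called higher and 0.0% lower (edgeR quasi-likelihood test, Benjamini-Hochberg adjusted p under 0.05 over all genes tested). By unadjusted p under 0.05 there were 2 members and 282 genes, and DESeq2 called no member and 5 genes. Among the 91 members of at least 10 CPM, log2 fold changes (anti-PD-1 over IgG) ran from -0.34 to 0.43, with a median standard error of 0.34 for the 13 mitochondrial and 0.13 for the 78 nuclear genes. The medians were 0.03 for the mitochondrial and 0.05 for the nuclear members, beside 0.01 for all genes tested. The fit takes the single IgG library to be as variable as the anti-PD-1 ones.

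The treatment comparison turned on which anti-PD-1 libraries entered. Without replicate 3, 12 members were called, 11 higher and 1 lower, and 5 of those higher were mitochondrial (median of the 13 mitochondrial genes 0.21). That is 12.5% of the members, beside 24.9% of all genes tested (3316 genes). Without replicate 1, the mitochondrial median was -0.26, and none of the 14050 genes tested was called, members included (94 at an unadjusted p under 0.05). With the split by guide composition as a term, which sets replicate 3 against IgG, 1 library against 1 with 1 residual degree of freedom, 7 members passed, where 1.14% of genes were called higher and 0.905% lower. These calls compare those libraries and not the treatments. Ndufb1-ps was at 0.57 (450, 450 and 530 CPM in replicates 1 to 3 and 356 in IgG) and Ndufa3 at 0.48 (237, 254 and 316 CPM against 227). The other 5 were mitochondrial and below 0, namely mt-Nd2 (-0.58), mt-Nd4 (-0.51), mt-Nd5 (-0.54), mt-Co3 (-0.57) and mt-Atp6 (-0.59), with a median of -0.47 over the 13. Treatment and library therefore cannot be told apart for the mitochondrial members.

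Part of the spread between libraries lay in cells that had almost no mitochondrial UMIs. Cells under 0.5% made up 0.868% (22 cells), 6.51% (169 cells) and 14.3% (917 cells) of anti-PD-1 replicates 1 to 3 and 0.800% (92 cells) of IgG. Their median UMIs were 18052, 15456, 11722 and 5006, against 16799, 16364, 12116 and 6341 in the other cells of the same libraries. Leaving these cells out gave a mitochondrial share of 3.17%, 2.31%, 1.64% and 2.04%, still a 1.94-fold range. In a fit on nuclear transcripts alone, 27 of 81 nuclear members were higher in these cells and none was lower, with a median log2 difference of 0.19 beside -0.02 over all genes, of which 3.92% were called higher and 5.63% lower. The nuclear-retained RNAs Malat1 (-0.67), Neat1 (-0.81) and Kcnq1ot1 (-1.08) were lower in them.

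Among single cells of a library, the 2 genomes did not move together. Spearman's rho between the mitochondrial share and the share of nuclear members among nuclear UMIs was between -0.19 and -0.10 in the 4 libraries. The mitochondrial share fell slightly with a cell's UMIs (rho -0.19 to -0.08) and the nuclear share increased with them (rho 0.20 to 0.32). These are descriptions over 2535 to 11495 cells of 1 library, and the shares and the UMIs come from the same counts.

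Cell cycle phase was called for each cell from S and G2M gene lists that hold no member, on cells thinned to 2000 UMIs, which left 163 shallower IgG cells without a phase. There were 10756 cells in G1, 6814 in S and 5326 in G2M. Most nuclear members were higher in S than in G1, by small steps, and the mitochondrial members split in both directions. Of 81 nuclear members tested, 59 were higher and 4 lower in S (median log2 0.13, beside -0.03 over all genes), where 27.3% of the 11929 genes tested were called higher and 28.0% lower. Of 13 mitochondrial members, 4 were higher and 5 lower (median -0.01). In G2M, 52 nuclear members were higher and 11 lower (median 0.11) and 3 mitochondrial members were higher and 2 lower, where 27.3% of genes were called higher and 29.8% lower.

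The S phase calls were spread over the classes. Of 35 nuclear complex I genes tested, 29 were higher and 1 was lower in S, and of 17 complex V genes 13 were higher and none was lower. Complex III had 5 higher and 1 lower of 8, complex IV 9 higher and 1 lower of 13, and the assembly factors 3 higher and 1 lower of 8. The log2 change had the same sign in all 4 libraries for 70 of the 72 members called in S and for 65 of the 68 called in G2M. The calls were made on these same 4 libraries, so that this agreement is a description and no separate test.

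Ndufaf2, an assembly factor that assists the last steps of complex I formation, changed most. Its level in G1 was 29.8, 30.9, 29.8 and 31.0 CPM in anti-PD-1 replicates 1 to 3 and IgG, and in S it was 49.6, 56.1, 58.2 and 53.0 CPM. The phases did not overlap, and the log2 fold change was 0.85 ± 0.047 SE (edgeR adjusted p = 5.9e-11). Ndufa5, an accessory subunit of the complex I matrix arm, had 120, 134, 121 and 111 CPM in G1 and 176, 190, 181 and 161 CPM in S (0.55 ± 0.026 SE). Ndufab1, the mitochondrial acyl carrier protein that is also a complex I subunit, rose by 0.49, and Ndufv1, which takes electrons from NADH, by 0.35. In the other complexes the largest rises in S were those of Atp5o, the stalk subunit OSCP (0.33), Cox6a1 (0.31) and Uqcr10 (0.30). In G2M the rises were 0.58 for Ndufaf2, 0.48 for Ndufa5 and for Ndufv1, 0.42 for Atp5o and 0.38 for Cox6a1 and for Cox7a2.

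A few nuclear members went the other way. Cox7a2l, which helps complexes III and IV to join in supercomplexes, had 321, 312, 340 and 344 CPM in G1 and 244, 249, 263 and 279 CPM in S, with every S value under every G1 value (log2 -0.34 ± 0.024 SE, edgeR adjusted p = 1.5e-09). Ndufa6, a complex I accessory subunit (-0.28), Uqcrh (-0.26) and the assembly factor Ndufaf3 (-0.23) also fell in S. The first 3 fell in G2M as well, by 0.31 for Cox7a2l, 0.32 for Ndufa6 and 0.31 for Uqcrh. Ndufaf4, another complex I assembly factor, fell in G2M and not in S: it had 56.5, 49.8, 40.6 and 43.4 CPM in G1 and 34.8, 37.2, 30.6 and 34.3 CPM in G2M (-0.44 ± 0.047 SE), whereas its S change of 0.12 was positive in 3 of 4 libraries.

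**Figure D2:**
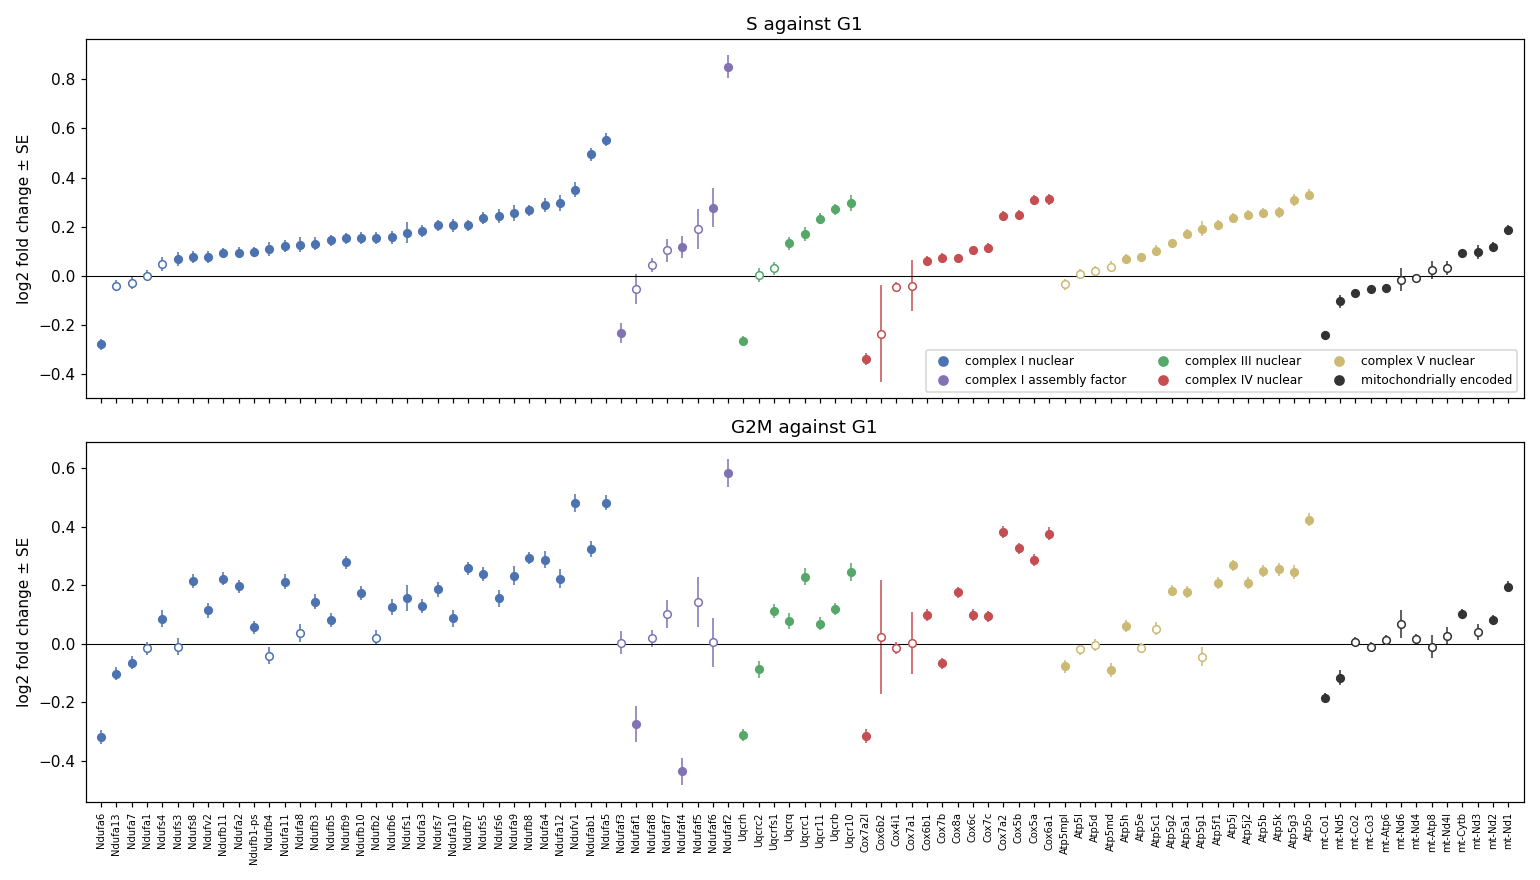
Log2 fold change of the tested members in S against G1 (top) and G2M against G1 (bottom), with bars of 1 SE, coloured by class; filled points have an edgeR adjusted p under 0.05. Most nuclear points lie above 0 in both panels, with Ndufaf2 highest, while Cox7a2l, Uqcrh and Ndufa6 lie below 0 in both and Ndufaf4 is lowest in G2M.

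The mitochondrial transcripts shifted against each other. The gene mt-Co1 had 6188, 3903, 3067 and 4169 CPM in G1 and 5235, 3198, 2574 and 3562 CPM in S, lower in each of the 4 libraries although the libraries overlap (log2 -0.24 ± 0.017 SE, edgeR adjusted p = 1.2e-09). The complex I subunit gene mt-Nd1 went up, from 1954, 1446, 915 and 1227 CPM to 2198, 1667, 1029 and 1371 CPM (0.19 ± 0.019 SE). Also higher in S were mt-Nd2 (0.12), mt-Nd3 (0.10) and mt-Cytb (0.09), and also lower were mt-Nd5 (-0.10), mt-Co2 (-0.07), mt-Atp6 (-0.05) and mt-Co3 (-0.05). At matched depth of cells mt-Atp6 (0.0063) and mt-Co3 (0.0017) were not lower. The other 4 were not called. The changes in G2M were 0.19 for mt-Nd1, 0.10 for mt-Cytb, 0.08 for mt-Nd2, -0.18 for mt-Co1 and -0.12 for mt-Nd5.

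Cells in S and G2M were deeper than cells in G1. Median UMIs were 12946, 12937, 10207 and 5265 in G1 and 19571, 19154, 14179 and 7361 in S. In G2M they were 22704, 22485, 15663 and 8329. With the same number of cells of every phase drawn in each library and depth quartile, a setting chosen after seeing the data, 36 nuclear members were higher and 4 lower in S (median 0.07), and 3 mitochondrial members were higher and 1 lower. Members were then called at 46.8%, beside 41.4% of all genes, where without matching the shares were 76.6% and 55.3%. The change was 0.74 for Ndufaf2, 0.47 for Ndufa5, -0.20 for Cox7a2l and -0.15 for mt-Co1 at matched depth, and the G2M change of Ndufaf4 was -0.72. For Ndufaf4 in S the direction turned and the call was lost (-0.04). In G2M, Ndufa10, Ndufb5, Ndufb6, Uqcr11, Uqcrb and Uqcrq were called higher without matching and lay below 0 at matched depth (-0.10 to -0.0017).

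Other lists of mitochondrial and growth genes were read in the same fit. All 4 complex II genes were higher in S, as were 59 of 78 mitochondrial ribosomal protein genes (4 lower), 34 of 38 proteasome genes (none lower) and 8 of 13 genes of the TCA cycle (1 lower). Glycolysis genes had 2 higher and 8 lower of 16, and cytosolic ribosomal protein genes 18 higher and 43 lower of 84.

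The 6 marker-defined states were then compared among cells called G1, and cycling that the phase calls missed was not tested. A cell took the state whose marker score was highest and at least 1 SD above the mean, which is a range of a score and not a cell type, and the markers hold no member. There were 1632 cells in the precursor exhausted range (Tcf7, Slamf6 and others), 1277 in effector memory (Klf2, S1pr1), 1268 in exhausted (Pdcd1, Havcr2), 1251 in effector cytokine (Ifng, Tnf), 917 in interferon (Isg15, Ifit3) and 1270 in hypoxia (Bnip3, Egln3), with 3141 below the limit on every list and 1295 near it. Each state was compared with the mean of the other 5 within libraries, so that the 6 comparisons share cells.

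Precursor exhausted cells had the most members called of the 6 states, and also the most genes called (3863 of 9512). Their median UMIs were 14910, 13818, 11444 and 6113 in replicates 1 to 3 and IgG. Of 93 members tested, 40 were higher and 11 lower, where 21.2% of 9512 genes were called higher and 19.4% lower. Of the 13 mitochondrial members 10 were higher and none lower (median 0.17, beside -0.0027 over all genes), led by mt-Atp8 (0.23), mt-Nd4l (0.22), mt-Nd1 (0.21) and mt-Nd2 (0.21). Against the 3141 cells below every limit, none of the 13 was called, with mt-Nd1 at 0.08, so that the mitochondrial difference is one from the other states. In that comparison 24 members were called (25.8%), 17 higher and 7 lower, beside 31.9% of all genes. Of the 8 assembly factors 5 were higher, among them Ndufaf4 (0.85 ± 0.082 SE), Ndufaf6 (0.84 ± 0.12 SE) and Ndufaf2 (0.58), and Ndufaf3 was lower (-0.20). Also higher were Ndufa12 (0.48), Atp5g1, 1 of the genes for the rotor subunit c (0.40), Ndufab1 (0.39), Ndufa4 (0.38) and Uqcr10 (0.37), and lower were Cox7a1 (-0.58, at 1.82 to 4.91 CPM), Cox7a2l (-0.17), Ndufa13 (-0.16) and Cox4i1 (-0.10). In the same cells 75 of 83 cytosolic ribosomal protein genes and 53 of 78 mitochondrial ribosomal protein genes were higher and 14 of 16 glycolysis genes were lower.

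Effector cytokine cells combined higher nuclear with lower mitochondrial members. Of 80 nuclear members 27 were higher and 4 lower, and of 13 mitochondrial members none was higher and 6 were lower, where 18.8% of genes were called higher and 15.0% lower. Ndufaf4 rose most (1.04 ± 0.087 SE, edgeR adjusted p = 2.6e-11), followed by Ndufaf2 (0.45), Atp5g1 (0.35), Ndufab1 (0.31), Ndufa4 (0.30), Ndufb6 (0.29) and Uqcrfs1, the Rieske iron-sulphur protein of complex III (0.27). The 6 mitochondrial genes were mt-Co1 (-0.19), mt-Nd5 (-0.17), mt-Atp6 (-0.15), mt-Co2 (-0.12), mt-Co3 (-0.12) and mt-Nd4 (-0.08), and Cox7a2l was at -0.27. Of the genes for subunit c, Atp5g1 and Atp5g3 (0.17) were higher and Atp5g2 (-0.09) lower.

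Exhausted cells showed lower nuclear members. Here 25 members were lower, all nuclear, and 3 were higher, where 11.2% of genes were called lower and 7.82% higher. Complex III had 6 of 8 genes lower, for example Uqcr10 (-0.20), complex IV 4 of 13, for example Cox6a1 (-0.17), and complex V 7 of 17, for example Atp5g1 (-0.26) and Atp5b, the catalytic beta subunit (-0.23). Ndufaf6 (-0.59), Ndufaf4 (-0.57) and Ndufab1 (-0.38) fell most. The 3 higher were Cox7a2l (0.16), Uqcrh (0.11) and mt-Co1 (0.08). Exhausted cells were the shallowest or nearly so, with median UMIs of 11319, 11336, 9424 and 4736. At matched depth 5 members remained called, among them Ndufaf4 (-0.53), Ndufab1 (-0.30) and Atp5g1 (-0.20), which is 5.38% of members beside 8.8% of all genes. Without replicate 1 there were 12 (12.9%, beside 12.5% of genes) and without IgG 13 (14%, beside 13.7%), so that the members' share stood near that of all genes in these settings. Against the cells below every limit 19 were called, all lower (20.4%, beside 10.2% of genes). In these cells 73 of 83 cytosolic and 36 of 78 mitochondrial ribosomal protein genes were lower as well.

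Hypoxia cells had 17 members lower and 1 higher, where 7.61% of genes were called lower and 7.88% higher, and all 16 glycolysis genes higher (median 0.78, 1 of them, Slc2a1, being a marker of this state). Complex I held 8 of the 17, with Ndufa4 at -0.36 ± 0.054 SE against the other states. Ndufa4 had 458, 529, 287 and 334 CPM in hypoxia cells and 613, 656, 445 and 475 CPM in cells below every limit, and that difference was -0.43. Ndufaf4 was at -0.62, Atp5g1 at -0.23, Uqcr10 at -0.19, Atp5g3 at -0.16 and, of the mitochondrial genes, mt-Cytb at -0.18 and mt-Nd4 at -0.14. The member called higher was Cox7a1 (0.60 ± 0.20 SE, edgeR adjusted p = 0.04), at 4.70 to 8.52 CPM. The count was 8 without replicate 2 (8.6% of members, beside 10.6% of genes), 11 without IgG (11.8%, beside 10.9%) and 11 at matched depth (11.8%, beside 10.5%), near the share of all genes. It was 33 with cells of all phases (35.1%, beside 17.7%) and 23 against the cells below every limit (24.7%, beside 12.8%).

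Effector memory cells had 10 members higher and 16 lower, where 11.6% of genes were called higher and 12.1% lower. The higher ones included Ndufa10 (0.19), Atp5h (0.19), Cox7a2l (0.18), Cox6a1 (0.11) and 4 mitochondrial genes, mt-Co1 (0.12), mt-Atp6 (0.10), mt-Co2 (0.08) and mt-Co3 (0.08), which lost their calls without replicate 2 and at matched depth, where mt-Co3 was at -0.0017. The lower ones included Ndufaf4 (-0.47), Ndufaf2 (-0.42), Ndufab1 (-0.26), Atp5g1 (-0.24), Ndufa4 (-0.22) and Uqcr10 (-0.19). Against the cells below every limit 10 members were called (10.8%, beside 7.58% of genes) and at matched depth 11 (11.8%, beside 13.9%). Interferon cells had no member called by edgeR or DESeq2, where 3.26% of genes were called higher and 1.86% lower. At an unadjusted p under 0.05 there were 13 members (14%), beside 16.8% of genes.

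**Figure D3:**
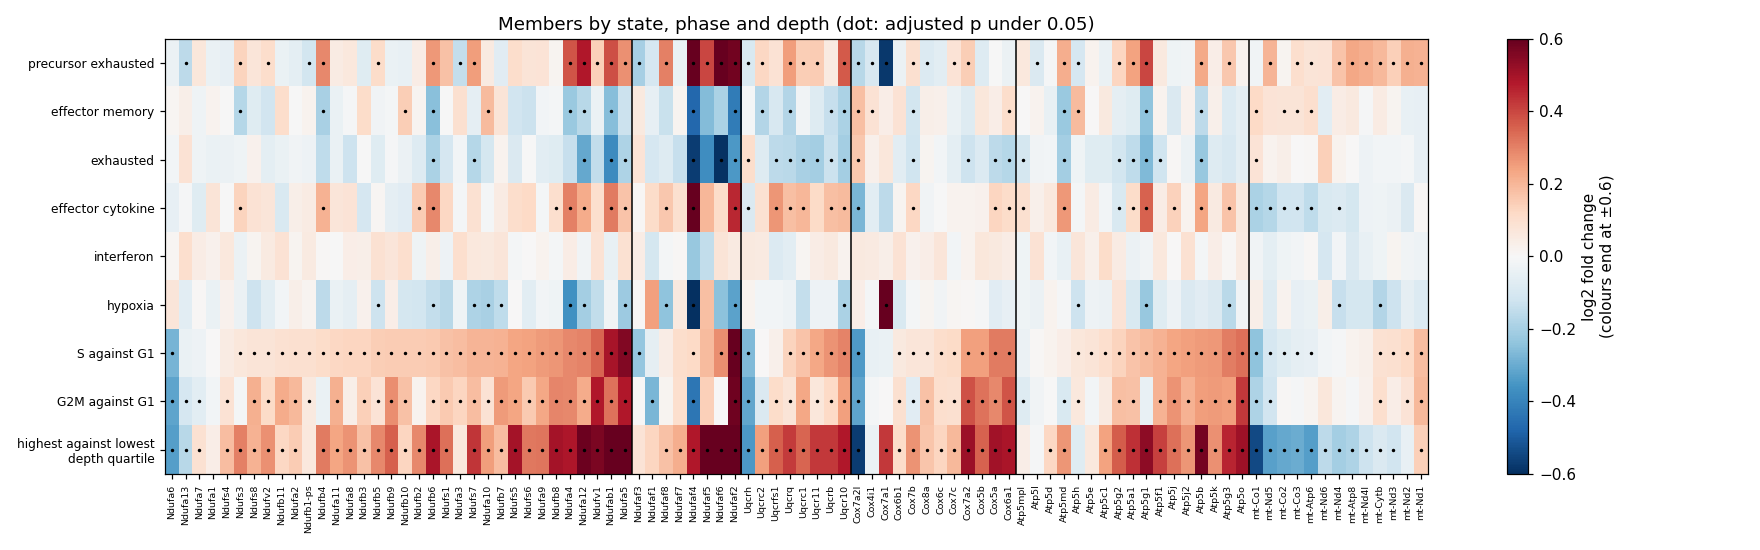
Log2 fold change (colour, ending at ±0.6) of the tested members (columns, by class, divided by vertical lines) in the 6 states, each against the mean of the other 5, and in the comparisons of phase and depth (rows); a dot marks an edgeR adjusted p under 0.05. Ndufaf4 is red in precursor exhausted and effector cytokine cells and blue in memory, exhausted and hypoxia cells, and most mitochondrial columns are red in precursor exhausted cells and blue in effector cytokine cells and in the deepest cells, where mt-Nd1 is red.

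Ndufaf4 had the largest change of any called member in effector cytokine, precursor exhausted, effector memory and hypoxia cells. In effector cytokine cells it had 87.2, 84.2, 64.3 and 76.5 CPM in anti-PD-1 replicates 1 to 3 and IgG, and in precursor exhausted cells 99.9, 70.9, 65.7 and 57.0 CPM. Cells below every limit had 45.3, 41.0, 30.9 and 37.0 CPM and interferon cells 48.8, 43.1, 34.5 and 30.7 CPM. The values were 35.8, 38.0, 26.5 and 35.6 CPM in effector memory, 23.3, 37.2, 34.5 and 30.6 CPM in exhausted and 36.0, 30.4, 28.1 and 29.3 CPM in hypoxia cells. Every value of the first pair of states thus lay above every value of the others. Effector cytokine and precursor exhausted cells overlapped, and so did the other 5 groups among themselves. Against the cells below every limit, Ndufaf4 was higher in effector cytokine (1.10) and precursor exhausted cells (0.94), while the values of -0.26 in hypoxia and -0.22 in exhausted cells did not pass the test.

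Depth within a library was the comparison with most members called, and also with most genes called. Cells were cut in quartiles of the UMIs of genes that are no members, with median UMIs from 3732 to 9301 in the lowest and from 11121 to 30521 in the highest quartile over the 4 libraries. Of 81 nuclear members 66 were higher and 4 lower in the highest quartile (median 0.28), and of 13 mitochondrial members 1 was higher and 11 lower (median -0.19, beside -0.04 over all genes), where 31.4% of the 11520 genes tested were called higher and 32.4% lower. Summed nuclear members were 11.8%, 7.17% and 13.4% higher in the replicates and 14.7% higher in IgG, whereas mitochondrial members changed by -19.1%, -18.2%, -23.6% and -23.9%. All 4 libraries moved the same way in both classes.

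Ndufaf2 had 25.2, 24.8, 29.1 and 26.2 CPM in the lowest and 50.02, 50.1, 53.9 and 51.9 CPM in the highest quartile (1.02 ± 0.063 SE, edgeR adjusted p = 1.5e-12). Ndufab1 rose by 0.94, Ndufv1 by 0.57 and Atp5b by 0.57. Cox7a2l fell from 376, 392, 372 and 372 to 231, 232, 252 and 258 CPM (-0.57), and Uqcrh (-0.35) and Ndufa6 (-0.33) fell too. Of the mitochondrial genes mt-Co1 fell most (-0.54) and mt-Nd1 rose (0.14). Among G1 cells alone 53 nuclear members were higher and 6 lower and 1 mitochondrial gene was higher and 6 lower (70.2% of members, beside 43.5% of all genes), with Ndufaf2 at 0.57 and mt-Co1 at -0.36. In the same fit 72 of 78 mitochondrial ribosomal protein genes and 36 of 38 proteasome genes were higher. Cell size, RNA content and capture cannot be told apart in these counts.

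**Figure D4:**
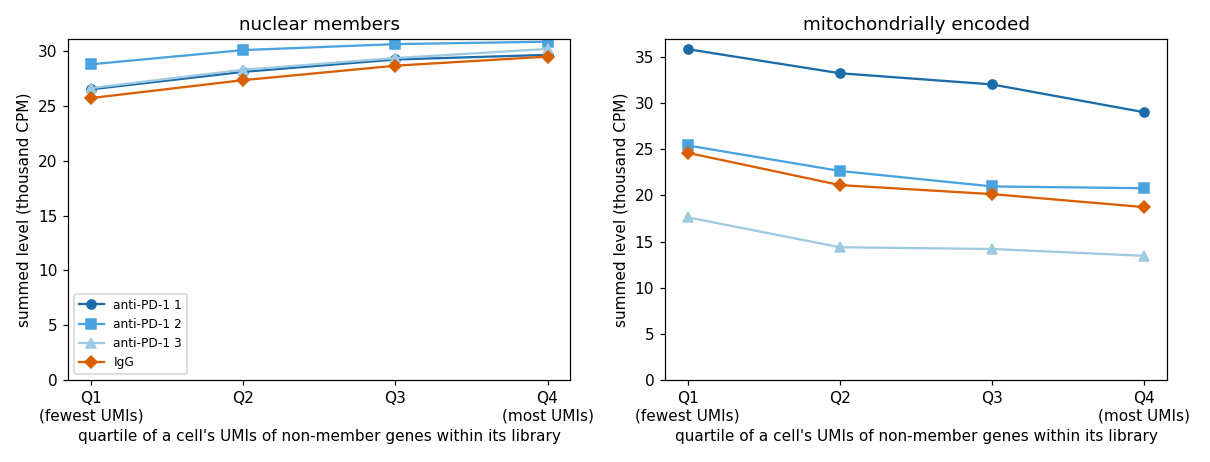
Summed level (CPM divided by 1000, axes from 0) of the nuclear members (left) and the mitochondrially encoded members (right) in quartiles of a cell's UMIs of non-member genes within its library, 1 line per library. The nuclear lines rise from the first to the last quartile and the mitochondrial lines fall, in all 4 libraries.

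The guides asked which knocked out genes change these transcripts. In the 3 anti-PD-1 libraries, 82 targets were compared with sgNT in 1 fit, and 53 targets had a call of any gene. Of 7708 pairs of target and member 13 were called, 10 higher and 3 lower, where 0.0462% of 772358 pairs of target and gene were called higher and 0.0139% lower. The 10 include Cox6a2 with Dgkz guides (80 UMIs over all 4 libraries) and Ndufa4l2 with Tgds guides (38 UMIs). Genes this scarce can pass the filter on low counts only through the sum where they are high, so these calls carry no weight. They fell on 6 targets, and 7 of the 13 were mitochondrial genes in cells with Mdh2 guides. Mdh2 is the mitochondrial malate dehydrogenase of the TCA cycle, and had been noted in these data before.

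The 3 Mdh2 guides are shown because they carry this result. They were taken from the supplementary guide list of the study and placed on GRCm38, in coding exons of Mdh2 and antisense to it, and capitals mark the 3 bases next to the guide on its 3′ side, the PAM.
Mdh2 guide 1, chr5:135787607-135787626, exon 6 of 6 of a shorter transcript: tcacgcacctgagagatcagGGG
Mdh2 guide 2, chr5:135783403-135783422, exon 2 of 9: gtgtgtgagcgatatcgtagAGG
Mdh2 guide 3, chr5:135786016-135786035, exon 4 of 9: gttggcaatgatgcaaaccaTGG

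Mdh2 itself was lower in cells with these guides in every library, at 149.9, 247 and 82.5 CPM in anti-PD-1 replicates 1 to 3 and 102 CPM in IgG, against 324, 352, 299.9 and 313 CPM in sgNT cells. In sgMdh2 cells mt-Nd2, a core membrane subunit of complex I (chrM:3914-4951), had 2762, 1803 and 1690 CPM in anti-PD-1 replicates 1 to 3, against 1088, 764 and 510 CPM in sgNT cells. These sums rest on 11, 22 and 62 sgMdh2 cells. The log2 fold change was 1.43 ± 0.13 SE (edgeR adjusted p = 1.2e-18). In the IgG library, which the test did not use, 175 sgMdh2 cells had 1887 CPM against 805 CPM in sgNT cells, a log2 ratio of 1.23. The other called genes were mt-Nd4 (0.86), mt-Nd4l (0.85), mt-Cytb (0.84), mt-Nd5 (0.68), mt-Nd3 (0.64) and mt-Atp6 (0.54), with IgG ratios of 0.53, 0.45, 0.62, 0.19, 0.54 and 0.30. The calls of mt-Nd2, mt-Nd4, mt-Nd4l and mt-Cytb were kept without any 1 of the replicates, while mt-Atp6 was lost without replicate 3, mt-Nd3 without replicate 2 or 3 and mt-Nd5 without replicate 1 or 3. The reads of mt-Nd4l and mt-Nd4 overlap on the genome and are uncertain as separate genes. Only 12 genes in all were called for Mdh2, and the median over all members was -0.06. The 13 mitochondrial genes had fitted values above 0 in the anti-PD-1 libraries with a median of 0.54, while in IgG 4 of them were lower than in sgNT cells, namely mt-Co3 (-0.34), mt-Nd6 (-0.22), mt-Co2 (-0.13) and mt-Nd1 (-0.06). Mitochondrial genes held 3.93%, 2.78%, 2.27% and 2.31% of the UMIs in sgMdh2 cells of replicates 1 to 3 and IgG, against 3.06%, 2.15%, 1.36% and 2.02% in sgNT cells. Cells under 0.5% mitochondrial UMIs made up 0%, 9.09%, 8.06% and 0.571% of sgMdh2 cells in replicates 1 to 3 and IgG. Among sgNT cells they made up 1.56%, 6.18%, 15.96% and 0.711%. Without such cells the log2 fold change of mt-Nd2 was 1.41.

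The makeup of the mitochondrial transcripts differed in sgMdh2 cells. The share of mt-Nd2 among mitochondrially encoded UMIs was 7.02% (exact Clopper-Pearson 95% interval 6.55 to 7.52), 6.49% (6.08 to 6.92) and 7.44% (7.05 to 7.85) in the anti-PD-1 replicates and 8.17% (7.85 to 8.49) in IgG, against 3.55%, 3.55%, 3.75% and 3.98% in sgNT cells. The intervals cover counting error only, and none reaches the sgNT value. It was the highest share in each library among sgNT and the targets ranked there (72, 74, 83 and 84 groups with sgNT). The next target stood at 3.97%, 4.36%, 4.52% and 4.59%. The share of mt-Co3 was 17.2%, 17.6%, 13.3% and 13.8%, against 22.3%, 22.8%, 18.9% and 20.02% in sgNT cells. A share also moves with the other genes, and the level of mt-Co3 was not called changed (log2 0.06 ± 0.099 SE, edgeR adjusted p = 0.991) in the anti-PD-1 libraries, while in IgG it was 3189 CPM against 4049 CPM in sgNT cells (-0.34).

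The 3 guides gave like values. In IgG they had mt-Nd2 shares of 7.72% to 8.43%, while 34 nontargeting guides ran from 3.53% to 4.56% and the highest of 261 guides against other genes reached 5.31%. In anti-PD-1 replicate 3 they had 6.58% to 8.11%, with 32 nontargeting guides at 3.19% to 4.73% and the highest other guide at 5.67%. For mt-Co3 the Mdh2 guides had 13.4% to 13.9% in IgG against 18.7% to 21.4% for nontargeting guides. Guides to 1 gene share their target, and under 10 cells per Mdh2 guide were kept in replicate 1.

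**Figure D5:**
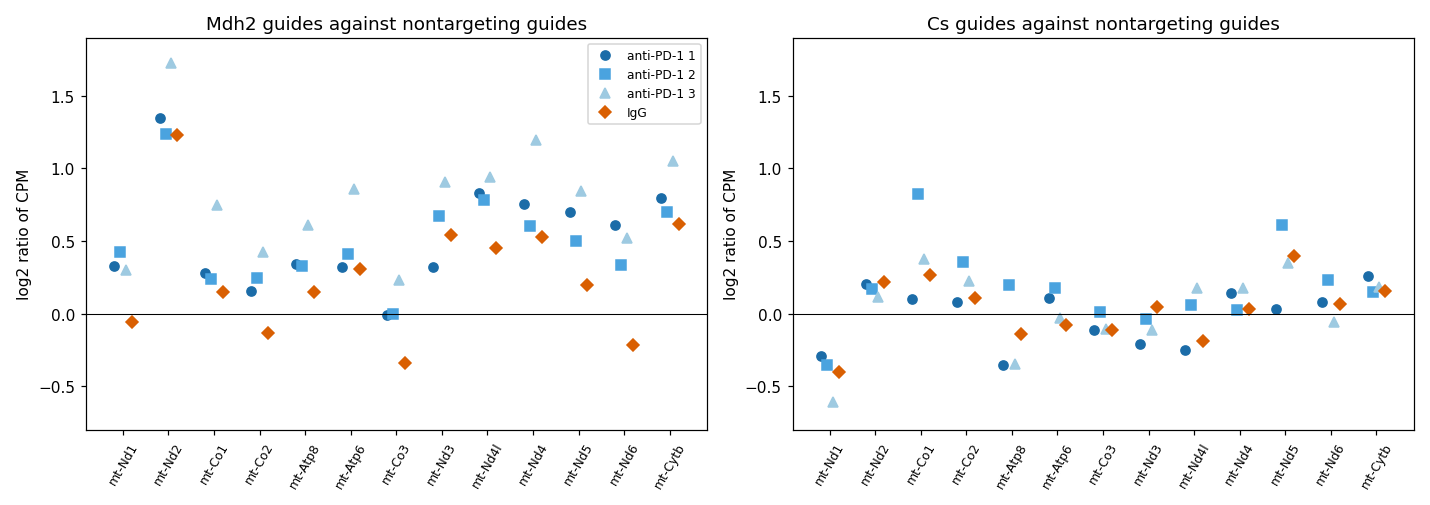
Log2 ratio of CPM (y axis) of the 13 mitochondrially encoded genes (x axis) in cells with Mdh2 guides (left) or Cs guides (right) against nontargeting guides, 1 point per library. With Mdh2 guides mt-Nd2 lies above 1 in all 4 libraries and mt-Co3 at or near 0 or below in all but replicate 3; with Cs guides mt-Nd1 lies below 0 in all 4 and mt-Co1 above 0.

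Cells with guides against Cs, the citrate synthase of the TCA cycle, had lower Cs (50.4, 49.0, 33.9 and 42.6 CPM against 70.4, 74.6, 63.0 and 61.2 CPM in sgNT cells) and 1 member called, mt-Co1 (0.49 ± 0.12 SE, edgeR adjusted p = 0.0078), with 5737, 6027 and 3462 CPM against 5361, 3400 and 2665 CPM in sgNT cells. Its call was lost without cells of other types (0.36) and without replicate 2 (0.26), and Krt18 and Epcam, genes of epithelium, were among the 113 genes called for Cs. In IgG mt-Co1 had 4574 CPM against 3814 CPM, a log2 ratio of 0.26. The share of mt-Co1 among mitochondrial UMIs ranked 19, 1, 1 and 2 among targets and sgNT in replicates 1 to 3 and IgG, and the share of mt-Co3 was lower for all 3 Cs guides in IgG (16.9% to 18.4%) than for the 34 nontargeting guides (18.7% to 21.4%), while in replicate 3 they overlapped (14.5% to 17.2%, against 16.9% to 20.3%). The level of mt-Co3 with Cs guides was not called changed (-0.04). Of these 3 guides, guide 1 had no match within an exon of the annotated Cs transcripts, and guide 2 lay in a coding exon with a PAM that crossed the exon end and was not read.

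The other calls rested on few cells or few UMIs. In cells with Dgkz guides Cox6a2, the muscle isoform, had 7.12, 2.06 and 22.9 CPM against 0.325, 0 and 0.385 CPM in sgNT cells, with Igkc and Jchain also called, and in IgG it was at 0 CPM with Dgkz guides. The Cox6a2 call was kept without cells of other types. Ndufa4l2 was seen with Tgds guides in replicate 2 only (21.4 CPM, 0 in sgNT cells), with the matrix genes Col1a1 and Sparc also called. Cox5a (-0.77) and Ndufa3 (-0.995) with Dhodh guides rested on 11 cells of replicate 3, and Cox5b (-0.66) with Pigp guides on 14 cells of replicate 3. With IgG added these were -0.41, -0.52 and -0.38 and were not called.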

How the data were processed

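Single-cell RNA and guide libraries (10x 3′ chemistry with feature barcodes) were deposited as raw UMI counts per gene and cell, which the authors made with Cell Ranger 3.1.0 on mm10. R 3.6.3 and Seurat are also named in the submitters' processing notes. No doublets were removed beyond the guide and UMI limits, and no caller was run. Kept cells had 1 called guide, log10 UMIs no further than 3 median absolute deviations from their library's median and at most 10% mitochondrial UMIs. This last limit truncates the mitochondrial members. Total gene UMIs per library were 142945121 to 155974184.

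Counts were summed per library and group (at least 10 cells) and tested with edgeR 4.0.16 (R 4.3.3, filterByExpr, TMM, quasi-likelihood test, library as a block except for treatment, Benjamini-Hochberg over all genes tested at 0.05). DESeq2 1.42.0 was an alternative. CPM were computed from summed counts and log2 values from the fits. The scripts were tested on simulated data. Members, lists, states and tests were chosen with earlier results of these data known. The genes named were taken, though not all are printed, from the called member of each class with the largest change either way in a comparison, the mitochondrial members and a fixed set of isoforms, and other genes named were chosen after their values were seen. Nuclear copies of mitochondrial genes and pseudogenes can share reads with members, and mt-Atp8 overlaps mt-Atp6 as mt-Nd4l overlaps mt-Nd4, so these are uncertain as separate genes. Gene positions are from GENCODE M21 (GRCm38). Values of 1 member are not reported here and it is left out of the figures, while counts over members include it.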

Additional observations from a re-analysis of the deposited data

How the results depend on the processing

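Of 153 counts of called members under the alternatives 135 stayed within 1.5 times the count as reported, and of 2700 values of the genes taken by the naming rule 2432 kept direction and side of the threshold, 263 kept direction and lost the call and 5 changed sign. For treatment the count was 12 without anti-PD-1 replicate 3 and 7 with batch as a term, and from 0 to 12 over libraries left out. With cells matched on depth, an alternative chosen after seeing the data, the count was 44 in S against G1, 5 in exhausted, 11 in hypoxia and 11 in effector memory cells. Against cells below the limit it was 10 in effector memory and 24 in precursor exhausted cells. With cells of all phases it was 33 in hypoxia (35.1% of members, beside 17.7% of genes) and 1 in interferon cells (1.06%, beside 10.2%), and with scores on all UMIs 29 (31.2%, beside 23.5%) and 8 (8.6%, beside 10.5%). Leaving out 1 library gave 12 to 22 in exhausted, 8 to 16 in hypoxia, 16 to 20 in effector memory cells and 6 to 11 for guide targets. Signs changed at matched depth for mt-Atp6 (0.0063) and mt-Co3 (0.0017) in S, Uqcrq (-0.0635) in G2M and mt-Co3 (-0.0017) in memory, and for Cox8a (-0.0025) in the depth comparison among G1 cells. Over all called members signs also changed at matched depth for Ndufaf4 (-0.04) in S and Ndufa10, Ndufb5, Ndufb6, Uqcr11 and Uqcrb in G2M (-0.10 to -0.0017), and among G1 cells for Ndufb10 and Ndufb11 in the depth comparison (-0.07 and -0.0082). Matching on depth uses fewer cells, and the cause of the other changes was not tested. No paired analysis was possible because the replicate numbers join the expression and guide libraries of 1 channel and only 1 IgG library exists here. For guide targets DESeq2 and a fit of genes with any UMI were not run.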
